A study of Mus musculus with 240 samples.

Results

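Gene expression in the prelimbic cortex (PrL) was compared with that in the nucleus accumbens (NAcc) across the 8 founder strains of the Collaborative Cross. By the sample labels, 95 of the 143 RNA-seq libraries with deposited log2 values belonged to these regions, 48 to the PrL and 47 to the NAcc. The other 48 libraries came from the central amygdala nucleus (CeA) and did not enter the comparison. The strains were the classical inbred laboratory strains C57BL/6J (B6), A/J (AJ), 129S1/SvImJ (S129), NOD/LtJ (NOD) and NZO/HILtJ (NZO) and 3 strains derived from wild mice, WSB/EiJ (WSB), PWK/PhJ (PWK) and CAST/EiJ (CAST), each with 3 females and 3 males. The paper gives the NOD strain as NOD/ShiLtJ. All 48 mice were naive and carried no engineered allele, and the series design puts them at 8 weeks of age whereas the study's methods give a greater age. Both regions came from the same mouse, taken by hand punch from 1 mm slices, the PrL at the midline and the NAcc around the anterior commissure, which the design text calls the core. Every replicate was a separate animal. The NAcc library of B6 mouse 1, a female, had no deposited log2 values, so each strain had 6 libraries per region except for 5 in the B6 NAcc. The paper states that a NAcc sample of a female B6 mouse was left out as an outlier in its correlation with the other samples. Genes were sorted into those that differed by more than 2-fold between the regions in every strain and those whose region difference depended on the strain.

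The PrL is a medial prefrontal area, where most neurons are glutamatergic projection neurons of pallial origin and the rest are GABAergic interneurons. The NAcc is the ventral part of the striatum, where most neurons are GABAergic projection neurons that carry dopamine receptors of the D1 class (direct pathway) or the D2 class (indirect pathway), with scattered cholinergic and other interneurons. Both lines of neurons are set apart during development by transcription factors, of which the Emx, Tbr and Neurod families act in the pallium and the Dlx and Isl families in the subpallium. White matter, such as the anterior commissure, and the pia and vessels at the midline can enter punches of these sizes.

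Total counts per library ran from 14942820 to 32331446 (median 24256267), and a median of 87.3% of them fell on the 14785 genes tested out of the 55414 in the count table. The labels were set beside marker lists, as mean log2 CPM (counts scaled to a common library size) per library. The lists were written with earlier results of these data known, so this is not an independent check of the labels. The pallial glutamatergic list had its lowest, median and highest PrL library at 6.46, 7.32 and 7.47, and the NAcc libraries at 2.55, 3.26 and 6.41, so the regions did not overlap. For the striatal projection neuron list the same values were 4.02, 4.16 and 6.42 in the PrL and 5.48, 7.47 and 8.17 in the NAcc, so the ranges overlapped. In 10 libraries one of these lists lay more than 1 log2 unit from the median of its region in the direction of the other region. Those were NAcc libraries of B6 mice 25 and 33, AJ mouse 5, S129 mouse 14 and PWK mice 24, 40 and 48, and PrL libraries of B6 mice 25 and 33 and PWK mouse 40. In the NAcc of PWK mouse 48 the pallial list was at 6.41, and in the PrL of PWK mouse 40 the striatal list was at 6.42. B6 and PWK held 8 of the 10, and without them 4 PrL and 3 NAcc libraries of B6 and 5 PrL and 3 NAcc libraries of PWK were left. Main results are therefore given with and without these 10 libraries, a rule that was set after seeing the data. For genes of the pallial and striatal lists, which chose the libraries, a larger difference without them is not an independent result.

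**Figure D1:**
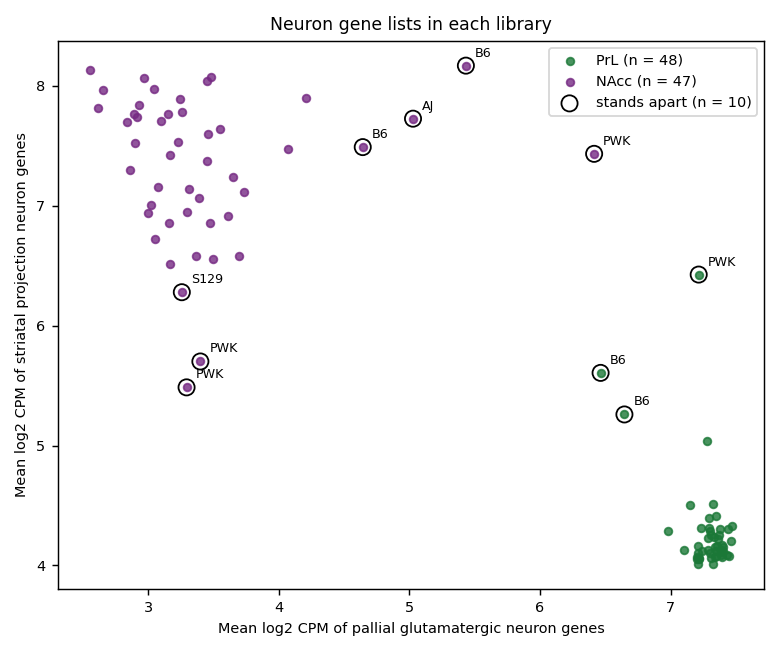
Mean log2 CPM of the pallial glutamatergic list (x axis) against that of the striatal projection neuron list (y axis), 1 point per library, coloured by region, with the 10 libraries that stand apart circled. PrL libraries lie at pallial values of 6.46 to 7.47 and NAcc libraries at 2.55 to 6.41, and each circled library is displaced towards the other region on at least 1 axis.

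Averaged over the 8 strains, 5746 genes were higher in the PrL (38.9% of the genes tested) and 6582 were lower (44.5%), by limma's moderated test with Benjamini-Hochberg adjustment. These are called differentially expressed genes (DEGs) below, and the difference is always PrL minus NAcc on the log2 scale. Its median over all genes was -0.027, and its median standard error (SE) was 0.037. Highly differentially expressed genes (hDEGs) had to pass limma's treat test against a 2-fold difference, and of these 703 were higher (4.75%) and 639 lower (4.32%) in the PrL. Within sequencing trays 1, 2 and 3 alone, where a mouse has its PrL and NAcc in different trays and each strain and region has about 2 libraries, the hDEGs numbered 564, 540 and 512 higher and 483, 380 and 422 lower. Without the 10 libraries that stand apart there were 765 and 702 hDEGs, of which 696 and 633 were among those above. With no filter on low counts, the DEGs were 16144 higher and 9488 lower, so that 63.0% of them were higher in the PrL in place of 46.6%. In bulk tissue, fewer cells of a type and less RNA per cell cannot be told apart.

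In every one of the 8 strains, 186 genes were hDEGs higher in the PrL (1.26% of the genes tested) and 118 were hDEGs lower in the PrL (0.798%). For comparison, 2049 genes were higher and 1781 were lower in all 8 strains by the moderated test, with no threshold on the fold. Every PrL library lay above every NAcc library for 198 genes (1.34%), and below every NAcc library for 134 genes (0.906%). Of the 304 genes that were hDEGs in every strain, 158 had such non-overlapping regions, 88 of them higher and 70 lower. Within trays 1, 2 and 3, 92, 24 and 3 genes were higher and 30, 8 and 23 were lower in every strain, with about 2 libraries behind each strain and region. Without the 10 libraries that stand apart the counts were 244 higher and 161 lower, which held 179 and 115 of the genes above.

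Among genes higher in the PrL, the 10 with the largest difference in their least different strain included 2 transcription factors of the Neurod family. Neurod6, a bHLH transcription factor of these neurons, was at 45.7, 152 and 180.4 CPM in the PrL and 0, 0.323 and 55.5 CPM in the NAcc (lowest, median and highest library, here and below). All but 2 PrL libraries lay above every NAcc library, and the 4 highest NAcc libraries (PWK mouse 48, B6 mice 33 and 25 and AJ mouse 5) were among those that stand apart. Neurod6 belongs to the pallial list by which those 4 were chosen, so this match is not an independent result. Its difference was 8.16 ± 0.435 (SE, n = 48 and 47 libraries, adjusted p = 4.03e-30), from 5.36 in B6 to 9.28 in NOD, and 8.83 without the 10 libraries. Neurod2, of the same family, was at 59.7, 87.5 and 117 CPM in the PrL and 0, 0.236 and 38 CPM in the NAcc, with no overlap. Its difference was 7.66 ± 0.358 (adjusted p = 8.84e-34) and spanned 5.05 to 9.13 over the strains. The 250 bases before the start of both genes are shown because the E-box CAGATG, which proneural bHLH factors are known to bind, occurs in one and not in the other. Sequences are from RefSeq on GRCm38.p6, an older build than the GRCm39 the authors aligned to, and are written 5′ to 3′ on the gene's strand with CAGATG (searched on both strands, where it reads CATCTG on the other) in capitals. The window of Neurod2 is chr11:98329646-98329895 (minus strand), with a match 118 bases before the start, and that of Neurod6 is chr6:55681264-55681513 (minus strand), with none.
Neurod2: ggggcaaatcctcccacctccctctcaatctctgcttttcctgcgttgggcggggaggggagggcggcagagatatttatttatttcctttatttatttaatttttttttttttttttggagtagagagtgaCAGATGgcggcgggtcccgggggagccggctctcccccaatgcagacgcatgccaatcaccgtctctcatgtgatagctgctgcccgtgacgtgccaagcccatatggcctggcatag
Neurod6: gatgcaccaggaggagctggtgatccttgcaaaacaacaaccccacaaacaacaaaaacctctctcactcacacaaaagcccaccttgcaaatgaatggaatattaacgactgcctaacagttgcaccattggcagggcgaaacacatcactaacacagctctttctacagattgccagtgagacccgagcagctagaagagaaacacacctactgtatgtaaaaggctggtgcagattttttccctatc
Windows of this length were found for 136 of the 186 higher genes and 91 of the 118 lower genes. CAGATG was in 15.2% of the 204 windows of the higher genes, 10.3% of the 117 windows of the lower genes, 10.2% of the 14424 windows of all genes tested and 14.4% of all 32851 windows. The homeobox core TAATTA was in 3.43% and 2.56% of the windows of the higher and lower genes, and in 2.5% of those of the genes tested.

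Slc30a3, the transporter that loads zinc into glutamatergic vesicles, was at 101, 145 and 226 CPM in the PrL and 0.209, 2.07 and 50.9 CPM in the NAcc, again without overlap. It differed by 6.19 ± 0.224 (adjusted p = 3.13e-41), and by 5.05 to 7.62 over the strains. Rtn4rl2, a receptor of the Nogo family, was at 26, 39.6 and 56.1 CPM in the PrL and 0, 0.44 and 20.3 CPM in the NAcc. The regions did not overlap, and the difference was 6.27 ± 0.308 (adjusted p = 2.12e-32). Ovol2, a zinc finger transcription factor best known from epithelia, was at 0.413, 10.9 and 14.7 CPM in the PrL and 0, 0 and 1.99 CPM in the NAcc. Of its 47 NAcc libraries 43 held at most 3 counts, so its fitted difference of 7.98 ± 0.497 (adjusted p = 5.73e-26) depends on the prior count of 0.5 that voom adds. The rest of the 10 were Trbc2, a T cell receptor constant segment with a near-identical copy among which reads may be split (6.45), the kinase gene Mylk3 (5.67), Itprid1 (6.33) and the genes Gm34567 (6.43) and C730002L08Rik (6.81), whose function is not established. For this rest too, between 20 (Trbc2) and 42 (Gm34567) of the 47 NAcc libraries held at most 3 counts, so the sizes depend on the prior count. All 10 remained hDEGs in every strain without the 10 libraries.

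Among genes lower in the PrL, those with the largest difference in their least different strain held transcription factors and receptors of subpallial neurons. Six3, a homeobox factor of developing striatal neurons, was at 0, 0 and 16.4 CPM in the PrL and 29.9, 69.6 and 93.7 CPM in the NAcc. No PrL library reached the NAcc range, and the PrL libraries held at most 3 counts in 42 of 48 cases. Its difference was -9.98 ± 0.489 (adjusted p = 1.69e-32) and spanned -11.03 to -8.41 over the strains, with -10.50 without the 10 libraries. Six3os1, which starts 2438 bases from Six3 on the opposite strand, was at 0, 0 and 5.17 CPM in the PrL and 21.6, 32.9 and 43.7 CPM in the NAcc and differed by -8.91 ± 0.414 (adjusted p = 5.64e-34). Whether the counting used strand is not given in the sources used here, so reads of these neighbours may not be fully separated. Isl1, a LIM homeobox factor of direct pathway and cholinergic neurons, was at 0, 0 and 2.67 CPM in the PrL and 12.1, 20.4 and 33.3 CPM in the NAcc. The regions did not overlap, and the difference was -8.30 ± 0.343 (adjusted p = 2.14e-37). Drd3, a dopamine receptor of the D2 class concentrated in the ventral striatum, was at 0, 0 and 0.596 CPM in the PrL and 1.67, 5.43 and 13.1 CPM in the NAcc and differed by -7.07 ± 0.403 (adjusted p = 2.41e-28).

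Lhx8, a LIM homeobox factor of forebrain cholinergic neurons, was at 0, 0 and 1.34 CPM in the PrL and 7.67, 20.3 and 66.4 CPM in the NAcc. AI606473, an uncharacterised gene, was at 0, 0 and 0.802 CPM in the PrL and 2.12, 5.94 and 21.6 CPM in the NAcc. Neither overlapped between the regions, and the differences were -8.53 ± 0.717 (adjusted p = 7.64e-19) and -7.39 ± 0.486 (adjusted p = 1.41e-24). These genes start 261 bases apart, head to head, and share the window chr3:154330571-154330810 (GRCm38.p6, plus strand, from RefSeq), which is shown as the only pair starting within 1000 bases of each other, head to head, among the 91 lower genes with a promoter window. Its 4 CG dinucleotides are in capitals.
Lhx8 and AI606473: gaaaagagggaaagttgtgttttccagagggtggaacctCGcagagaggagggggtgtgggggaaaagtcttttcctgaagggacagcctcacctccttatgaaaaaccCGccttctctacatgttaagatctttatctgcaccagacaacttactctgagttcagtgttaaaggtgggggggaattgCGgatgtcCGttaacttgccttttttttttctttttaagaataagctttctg
The 250-base windows of all genes tested held a median of 15 CG, those of the higher genes 8.5 and those of the lower genes 11. A head-to-head partner within 1000 bases was found for 1.47% of the 136 higher genes, 4.4% of the 91 lower genes and 12.9% of the 11195 genes tested with a window. Further lower genes chosen this way were Calcr, the calcitonin receptor (-8.81), the imprinted gene Rtl1 (-6.69) and the pseudogene Sfta3-ps (-6.86). None of their PrL libraries lay in the NAcc range. Levels in the PrL were at or under 3 counts in 40 to 47 of 48 libraries for the 9 lower genes named here, so that the size of these differences depends on the prior count.

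**Figure D2:**
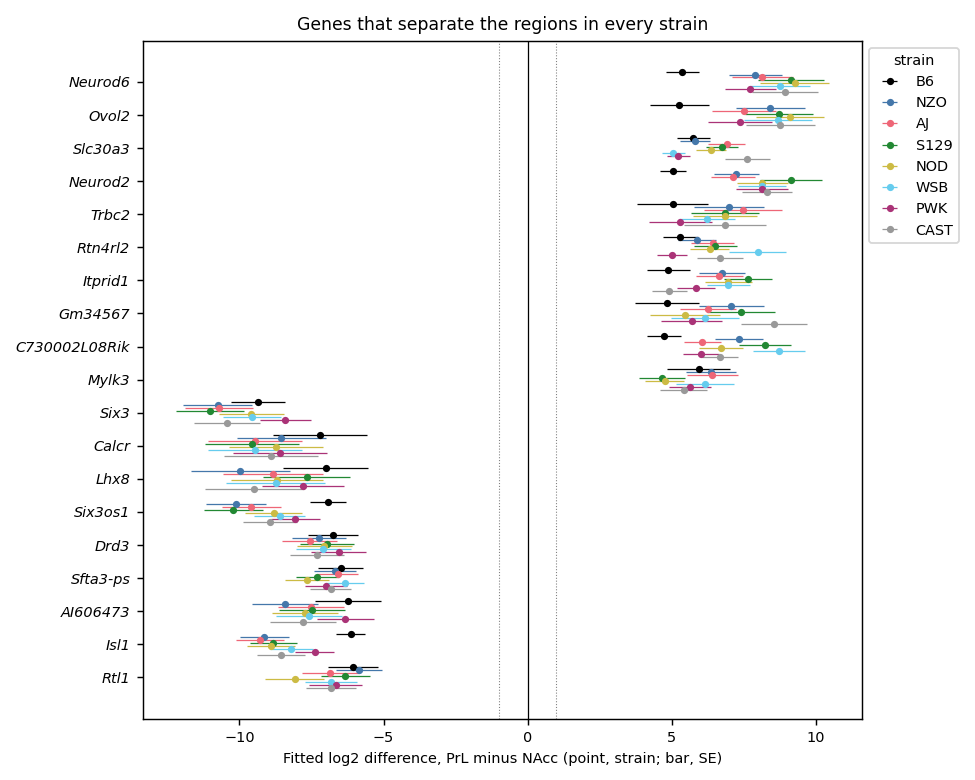
Log2 difference (PrL minus NAcc, x axis) of 10 higher and 9 lower genes with the largest difference in their least different strain, 1 point per strain with its SE as a bar and dotted lines at a 2-fold difference. All points lie beyond the dotted lines, from 5.36 to 9.28 for Neurod6 and from -11.03 to -8.41 for Six3.

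The pallial glutamatergic neuron list had 21 genes tested, of which 19 were higher and 1 was lower in the PrL, with a median difference of 4.01 beside -0.027 for all genes. Over all genes tested 38.9% were higher and 44.5% lower, and each list below is to be read against these shares. Of the pallial genes, 14 were hDEGs in every strain. Tbr1, a T-box factor of early-born projection neurons, was at 104, 178 and 239 CPM in the PrL and 0.435, 5.75 and 107 CPM in the NAcc (difference 4.96 ± 0.223, adjusted p = 5.81e-35). Fezf2, which specifies subcortical projection neurons, was at 6.65, 60.4 and 92.5 CPM in the PrL and 0.358, 1.81 and 15.6 CPM in the NAcc (difference 4.96 ± 0.269, adjusted p = 1.31e-29). Both were hDEGs in every strain. Lmo3, a LIM-only factor, was the member that was lower (-0.49 ± 0.073, adjusted p = 6.08e-09).

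Slc17a7, the vesicular glutamate transporter of cortical neurons, had counts above 50000, the maximum of the authors' filter, and was not among the genes tested. Another fit had no upper count limit and no filter on chromosomal location. It took the 14764 genes with a mean CPM of at least 1, among them the 68 above that maximum. In this fit, Slc17a7 was at 1528, 2132 and 2526 CPM in the PrL and 1.55, 5.75 and 1129 CPM in the NAcc and differed by 7.78 ± 0.322 (adjusted p = 2.63e-37), with more than a 2-fold difference in all 8 strains. Ppp1r1b (DARPP-32), the phosphatase inhibitor of striatal projection neurons, was at 42.4, 81.1 and 694 CPM in the PrL and 113, 1234 and 2888 CPM in the NAcc in the same fit and differed by -3.73 ± 0.149 (adjusted p = 2.75e-38), also in all 8 strains. Of the 68 genes, 5 were hDEGs higher and 7 were hDEGs lower in the PrL, and 4 were hDEGs in every strain.

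All 27 striatal projection neuron genes tested were lower in the PrL, with a median of -2.63, and 12 were hDEGs in every strain (17 without the 10 libraries). The rise to 17 is not an independent result, because this list was used to choose those libraries. The list holds Six3, Isl1 and others named above for this pattern. Rgs9, which shortens G protein signals downstream of dopamine receptors, was at 5.61, 15.1 and 139 CPM in the PrL and 38.4, 293 and 629 CPM in the NAcc and differed by -4.20 ± 0.17 (adjusted p = 5.5e-38). For this gene 44 PrL libraries lay below every NAcc library, and the rest lay within the range of the NAcc.

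In the direct pathway list 7 of 8 genes were lower and 1 was higher (median -2.97), and in the indirect pathway list all 6 were lower (median -4.93). Drd1, the receptor that defines the direct pathway, was at 6.51, 18.2 and 108 CPM in the PrL and 30.2, 242 and 391 CPM in the NAcc and differed by -3.36 ± 0.156 (adjusted p = 6.12e-34). Tac1, the precursor of substance P, was at 3.76, 15.2 and 49.6 CPM in the PrL and 26.5, 158 and 262 CPM in the NAcc and differed by -3.30 ± 0.134 (adjusted p = 8.77e-38). Both were hDEGs in every strain. Pdyn, the precursor of dynorphins, was at 24.3, 40.4 and 68.4 CPM in the PrL and 29.2, 214 and 453 CPM in the NAcc, with more overlap between regions, and was an hDEG in 6 strains (-2.29 ± 0.11, adjusted p = 5.99e-33).

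Drd2, the receptor that defines the indirect pathway, was at 0.915, 2.16 and 92.2 CPM in the PrL and 38.8, 185 and 366 CPM in the NAcc and differed by -6.03 ± 0.303 (adjusted p = 8.33e-32). Adora2a, the adenosine receptor of the same neurons, was at 1.16, 2.49 and 145 CPM in the PrL and 22.3, 301 and 589 CPM in the NAcc and differed by -6.34 ± 0.327 (adjusted p = 4.57e-31). All but 1 and 3 PrL libraries lay below every NAcc library for these genes. Penk, the precursor of enkephalins, was at 16.9, 36.6 and 318 CPM in the PrL and 361, 1134 and 2155 CPM in the NAcc, with no overlap, and differed by -4.67 ± 0.132 (adjusted p = 1.09e-48). The smallest of the 8 differences of Drd2 was -4.47 and that of Penk -3.12, so no strain lacked the difference.

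The GABA synthesis and transport list had 7 of 8 genes lower in the PrL (median -1.09). Gad2, which makes synaptic GABA, was at 158, 212 and 382 CPM in the PrL and 648, 966 and 1268 CPM in the NAcc and differed by -2.11 ± 0.0394 (adjusted p = 6.27e-61). Slc32a1, the vesicular GABA transporter, was at 63.5, 77.2 and 149 CPM in the PrL and 197, 348 and 466 CPM in the NAcc and differed by -2.08 ± 0.0451 (adjusted p = 9.25e-57). For both, no library of one region reached the other, and the strains spanned only -2.39 to -1.85 and -2.31 to -1.83. Gad1, the other GABA-synthesising enzyme, differed by -1.18 ± 0.0576 (adjusted p = 1.73e-32) and was an hDEG in 1 strain. The member that was higher was Slc6a13, a GABA transporter found mostly in meninges rather than neurons (2.37 ± 0.152, adjusted p = 2.79e-25).

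Of 21 interneuron markers tested 10 were higher and 10 lower, near the shares of all genes (38.9% and 44.5%), with a median of 0.035. Vip, the peptide of a class of cortical disinhibitory interneurons, was at 33.6, 57.9 and 89 CPM in the PrL and 0.0622, 1.19 and 23.6 CPM in the NAcc. The regions did not overlap, and the difference was 5.54 ± 0.156 (adjusted p = 9.28e-49), with an hDEG in every strain. Pvalb, of fast-spiking interneurons, was at 6.33, 31.7 and 112 CPM in the PrL and 0.746, 12.4 and 134 CPM in the NAcc, with wide overlap, and differed by 1.21 ± 0.233 (adjusted p = 2.61e-06). Sst and Npy, peptides of other interneurons, differed by 0.22 ± 0.0505 (adjusted p = 4.32e-05) and 0.44 ± 0.0667 (adjusted p = 5.72e-09). Neither was an hDEG in any strain. Nkx2-1, a factor of medial ganglionic eminence neurons that striatal interneurons keep into adulthood, was at 0, 0.0609 and 1.02 CPM in the PrL and 3.84, 8.89 and 24.7 CPM in the NAcc and differed by -6.58 ± 0.348 (adjusted p = 2.49e-30). It held at most 3 counts in 39 of the 48 PrL libraries, so this size depends on the prior count.

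Cholinergic neuron genes had the largest negative median of the lists, -6.13, with 9 of 10 lower and 8 hDEGs in every strain. Chat, which makes acetylcholine, was at 0, 0.316 and 8.02 CPM in the PrL and 16.9, 27.8 and 65.3 CPM in the NAcc and differed by -6.55 ± 0.39 (adjusted p = 3.65e-27), without overlap. The genes Lhx8 and Isl1 are in this list. The list of septum, pallidum and diencephalon, regions that also hold cholinergic or related neurons, moved with it: 11 of 15 were lower and 2 were higher in the PrL (median -1.08), and its mean log2 CPM was 0.322, 0.768 and 2.19 in the PrL and 1.92, 3.46 and 5.04 in the NAcc. Calcr, Six3, Nkx2-1 and Gbx1 of that list are also known from striatal or cholinergic cells. The part of such neighbouring tissue in the cholinergic difference was not tested.

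For dopamine signalling, 10 of 13 genes were lower and 1 was higher (median -2.13), the higher one being Maob, a monoamine oxidase (0.41 ± 0.0389, adjusted p = 3.19e-16). Of the forebrain patterning transcription factors, 25 of 52 were higher and 22 lower (median 0.238), and 11 and 9 were hDEGs in every strain. The 11 included Emx1 (6.83), Tbr1, Fezf2 and 3 Neurod genes of the pallium, and the 9 included Six3, Isl1, Dlx5 (-2.14), Dlx6 (-2.70), Sp9 (-2.35) and Zfp503 (-4.07) of the subpallium. Retinoic acid and thyroid hormone signalling had 10 of 22 genes in each direction, also near the shares of all genes (median 0.081). Its largest differences were those of Aldh1a3, a retinoic acid synthesising enzyme (0.0445, 4.78 and 8.89 CPM in the PrL and 0, 0.296 and 2.15 CPM in the NAcc, difference 3.56 ± 0.239, adjusted p = 3.89e-24), and of Crabp1, a retinoic acid binding protein (0.0442, 0.393 and 2.35 CPM in the PrL and 2.24, 10.5 and 20.8 CPM in the NAcc, difference -4.59 ± 0.221, adjusted p = 6.87e-33).

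Neuropeptide genes were lower in the PrL in 15 of 26 cases and higher in 9 (median -0.71). Cck (5.10), Adcyap1 (4.52) and Vip were higher by more than 2-fold in every strain, and Nts, the neurotensin precursor, was lower in every strain (0, 0.306 and 5.55 CPM in the PrL and 6.72, 22.6 and 57.4 CPM in the NAcc, difference -6.22 ± 0.441, adjusted p = 9.43e-23). Oxt, the oxytocin precursor of hypothalamic neurons, ranged over 0, 0 and 0.16 CPM in the PrL and 0, 2.14 and 152 CPM in the NAcc, with the highest NAcc library far above the median, and its difference was -4.87 ± 1.17 (adjusted p = 0.000115).

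Among receptors of glutamate and GABA, ionotropic glutamate receptors had 9 of 17 higher and 5 lower (median 0.176), from Grin2a, an NMDA receptor subunit (1.45 ± 0.0592, adjusted p = 1.31e-37), to Grik2, a kainate receptor subunit (-1.03 ± 0.0357, adjusted p = 1.37e-42). Metabotropic glutamate receptors had 2 of 7 higher and 3 lower (median -0.047). Grm2, a presynaptic inhibitory receptor, was at 56.2, 114 and 171 CPM in the PrL and 3.11, 8.79 and 26.3 CPM in the NAcc, without overlap, and differed by 3.80 ± 0.0968 (adjusted p = 8.07e-52). GABA-A receptor subunits had 5 of 14 higher and 6 lower (median -0.080), from Gabra3 (1.13 ± 0.0663, adjusted p = 1.37e-27) to Gabre (-5.01 ± 0.556, adjusted p = 2.01e-13). Of the opioid, cannabinoid and muscarinic receptors, 4 of 10 were higher and 5 lower (median -0.025). Oprm1, the mu opioid receptor (-2.48 ± 0.0876, adjusted p = 5.41e-42), and Chrm5, a muscarinic receptor (-4.85 ± 0.307, adjusted p = 1.57e-25), were hDEGs lower in every strain, and Chrm3 was the most different of those higher (1.88 ± 0.0885, adjusted p = 1.18e-33).

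Activity-regulated genes, which neurons induce within minutes to hours of stimulation, were higher in the PrL in 25 of 28 cases and lower in 1 (median 0.741). Bdnf, a secreted neurotrophin, was at 15.7, 32.5 and 42.9 CPM in the PrL and 0.124, 1.5 and 15.3 CPM in the NAcc, without overlap, and differed by 4.40 ± 0.205 (adjusted p = 6.74e-34). Bdnf and Ptgs2 (3.06) were hDEGs in every strain, and the gene that was lower was the kinase Sik1 (-0.71 ± 0.0584, adjusted p = 3.07e-19). The mean log2 CPM of the list was 4.39, 4.78 and 5.99 in the PrL and 3.32, 3.85 and 4.61 in the NAcc.

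Markers of glia and of other tissue in the punches also differed. All 16 oligodendrocyte and myelin genes were lower in the PrL (median -1.67), 13 of them as hDEGs, but none was an hDEG in every strain. Mal, a myelin proteolipid, was at 31.1, 80.0 and 248 CPM in the PrL and 96.5, 315 and 743 CPM in the NAcc and differed by -1.82 ± 0.118 (adjusted p = 6.85e-25). Microglial genes were lower in 14 of 15 cases by small amounts (median -0.28), the largest being Ctss, a lysosomal protease (-0.48 ± 0.0485, adjusted p = 5.05e-15), and none was an hDEG. Aif1, a calcium-binding protein of microglia, was the 1 that was higher (0.12 ± 0.0486, adjusted p = 0.0176), and without the 10 libraries it did not pass. Of 15 astrocyte genes 5 were higher and 7 lower (median 0.018). The most different was Agt, the angiotensinogen gene of a subset of subcortical astrocytes, which was at 1.88, 3.93 and 8.64 CPM in the PrL and 3.73, 77.7 and 239 CPM in the NAcc and differed by -3.81 ± 0.375 (adjusted p = 1.42e-15).

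Vascular and meningeal genes were higher in the PrL in 14 of 19 cases and lower in 1 (median 0.24). The 6 hDEGs among them were Ptgds (2.68), Slc6a13, Lum (2.27), Col1a2 (2.03), Igf2 (1.79) and Col1a1 (1.42), known from meningeal fibroblasts, whereas the endothelial Cldn5 was at a difference of 0.24 and Pecam1, which did not pass, at 0.028. The list's mean log2 CPM was 3.14, 4.38 and 5.30 in the PrL and 2.65, 3.60 and 4.22 in the NAcc. Aldh1a2, a meningeal enzyme of retinoic acid synthesis, had a difference of 3.23 ± 0.199 (adjusted p = 2.61e-26). Choroid plexus and ependymal genes were lower in 6 of 9 cases and higher in 1 (median -1.29), and Ttr, Tmem212 and Mia of this list were not tested. In the fit with no upper count limit, Ttr was at 0, 0.111 and 3.66 CPM in the PrL and 0, 0.0378 and 3.45 CPM in the NAcc. The difference of Ttr was 1.01 ± 0.445 (adjusted p = 0.0319), opposite in sign to the list's median, and it was an hDEG in no strain. Clic6, a chloride channel family member, was at 0.0433, 0.273 and 2.43 CPM in the PrL and 3.2, 25.5 and 41.8 CPM in the NAcc (difference -5.99 ± 0.314, adjusted p = 1.3e-30), whereas Kcnj13, a potassium channel, was at 0.178, 1.21 and 4.82 CPM in the PrL and 0, 0 and 0.137 CPM in the NAcc and at most at 3 counts in every NAcc library. In the list of neuroblasts 3 of 11 genes were higher and 5 lower (median -0.18), and its highest value in any library, 5.30, was in the PrL of B6 mouse 25.

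Upper layer genes were higher in 6 of 14 cases and lower in 6 (median 0.028), and deep layer genes were higher in 11 of 20 and lower in 9 (median 0.218), beside 38.9% and 44.5% of all genes. Cux2, of upper layer neurons, was at 51.1, 152 and 192 CPM in the PrL and 26.8, 41.9 and 69.9 CPM in the NAcc and was an hDEG in 7 strains (1.75 ± 0.0559, adjusted p = 4.25e-45). Rorb, of layer 4 neurons, was at 22.2, 44.3 and 146 CPM in the PrL and 14.4, 26.2 and 66.6 CPM in the NAcc and was an hDEG in none (0.87 ± 0.0573, adjusted p = 1.86e-24). Stard8, a GTPase-activating protein, was at 26.8, 45.6 and 69.6 CPM in the PrL and 8.46, 11.6 and 20.8 CPM in the NAcc, without overlap, and was an hDEG in every strain (1.98 ± 0.063, adjusted p = 3.73e-45). Of the genes that were lower, Oprk1, the kappa opioid receptor (-2.47 ± 0.121, adjusted p = 1.75e-32), and Wfs1 (-1.36 ± 0.0857, adjusted p = 1.15e-25) are also known from striatal neurons.

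**Figure D3:**
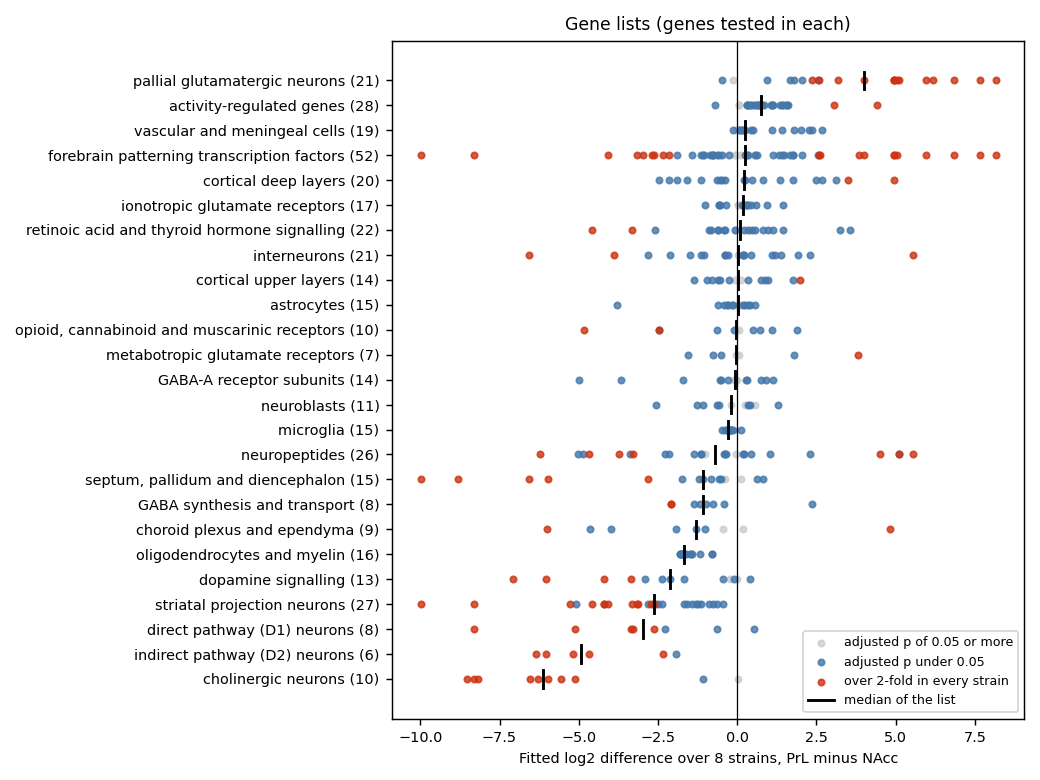
Log2 difference (PrL minus NAcc, x axis) of each tested gene in 25 gene lists (y axis), with red points for hDEGs in every strain, blue points for other genes that passed the moderated test, grey points for the rest, and a black bar at the median of each list. The median is 4.01 for pallial glutamatergic neurons, -2.63 for striatal projection neurons and -6.13 for cholinergic neurons.

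Whether the region difference depended on strain was tested with the interaction of strain and region. It passed for 4240 genes (28.7%), among them 91 of the 304 genes that were hDEGs in every strain (29.9%) and 730 of the 1234 that were hDEGs in 1 to 7 strains (59.2%). Strain-limited genes, which passed the interaction test, were an hDEG in at least 1 strain and had a 95% confidence interval within a 2-fold difference in at least 1 other, numbered 270 (1.83%). Genes higher in the PrL in at least 1 strain and lower in at least 1 other numbered 565 (3.82%). These counts did not hold within trays: trays 1, 2 and 3 alone gave 7, 0 and 9 genes with an interaction, 2, 0 and 2 strain-limited genes and 4, 0 and 6 of opposite direction, again with about 2 libraries for each strain and region. Without the 10 libraries that stand apart the counts were 4655, 330 and 615, and 3545, 184 and 402 of the genes were shared.

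Counted by strain, 6456 of 118280 gene-by-strain differences were hDEGs (5.46%). The number of hDEGs was 929 in AJ, 885 in NOD, 863 in S129, 861 in CAST, 827 in WSB, 773 in NZO, 683 in B6 and 635 in PWK. Within trays 1, 2 and 3 the sum over strains was 2460, 1520 and 1266. Against the mean of the other 7 strains, 4655 gene-by-strain differences departed (3.94%). B6 had the most, 1474, of which 1083 were narrower than in the other strains and 391 wider, followed by PWK with 971 (758 narrower, 213 wider) and CAST with 840 (460 narrower, 380 wider). The other strains had 152 (S129) to 373 (AJ). The B6 NAcc library without deposited log2 values, which the authors left out as an outlier, was then added from the counts. With it B6 had 734, CAST 658 and PWK 653, and NOD and WSB went from 325 to 170 and from 366 to 229. Within trays 1, 2 and 3 the departures of all strains together numbered 17, 6 and 32.

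The libraries that stand apart lay mostly in B6 and PWK. Without them the total number of departures moved most in strains that held none of them. The departing genes themselves were kept least in B6 (817 of 1474 shared) and PWK (402 of 971 shared). Departures then numbered 1364 in B6 (817 shared), 1188 in CAST (808 shared), 892 in WSB in place of 366 (360 shared), 677 in NOD in place of 325 (310 shared), 676 in PWK (402 shared), 421 in AJ, 361 in NZO in place of 154 (150 shared) and 236 in S129 in place of 152 (127 shared), so the order of the strains was not kept. The hDEGs numbered 947 in B6 and 820 in PWK, against 918 to 1082 in the other strains. Leaving out mouse 33 alone took the departures of B6 to 652, and leaving out mouse 40 alone took those of PWK to 545. Other single mice moved the counts as well, to between 215 (without mouse 37) and 623 (without mouse 21) in AJ, 162 (without mouse 39) and 515 (without mouse 47) in NOD and 209 (without mouse 11) and 675 (without mouse 19) in WSB, and to 552 (without mouse 4) in CAST. Genes that were hDEGs in every strain but one were most often missing from PWK (66 genes) and B6 (62 genes), and at most 10 were missing from any other strain. Of these, 28 and 31 were found again without the 10 libraries. In that fit 53 genes were missing from PWK alone and 61 from B6 alone, and at most 20 (CAST) from any other strain. The effect of region in PWK and B6 and of the libraries that stand apart cannot be fully told apart. An hDEG in a single strain was found for 366 genes, from 20 in S129 to 78 in CAST, and 163 of these were strain-limited.

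**Figure D4:**
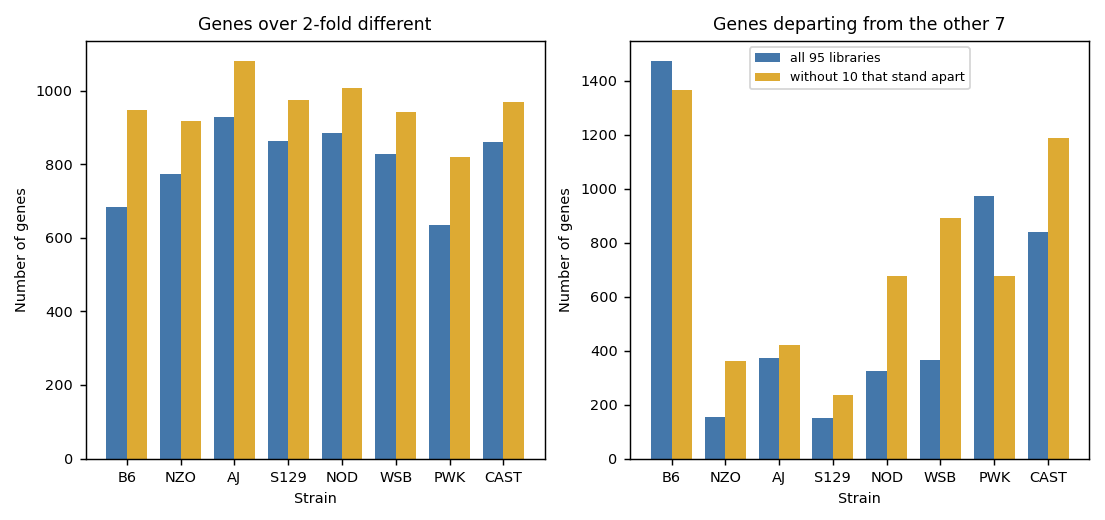
Number of genes per strain (y axis, from 0) that were hDEGs between PrL and NAcc (left) and whose region difference departed from the mean of the other 7 strains (right), with 1 bar for all 95 libraries and 1 bar without the 10 libraries that stand apart. B6 goes from 683 to 947 hDEGs and PWK from 635 to 820, while their departures go from 1474 to 1364 and from 971 to 676 and those of WSB from 366 to 892.

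Strain-limited genes with small interaction p were Fancd2, Wwox, Echdc2, Ptprh, Cela1, Arhgap42 and H2-T22, and all 7 were strain-limited without the 10 libraries as well. With the genes of opposite direction and the largest departure of each strain, given further on, there were 18 such differences between strains. Within each of trays 1, 2 and 3 all 18 kept their sign, and 2, 0 and 3 of them passed the test. They were selected in the fit that holds the libraries of all trays, so the kept sign is not an independent test.

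Wwox, an oxidoreductase with WW domains, was an hDEG in S129 only by this test. In S129 it was at 73.5, 90.9 and 98.4 CPM in the PrL and 14.4, 18.6 and 25.6 CPM in the NAcc, without overlap, and the difference of 2.22 ± 0.138 departed from that of the other strains by 1.97 ± 0.15 (adjusted p = 5.08e-17). In the other strains the differences were between -0.35 (PWK) and 0.70 (B6). Echdc2, a mitochondrial enoyl-CoA hydratase family member, was at 9.96, 12.2 and 17.1 CPM in the PrL and 2.78, 4.25 and 4.83 CPM in the NAcc in AJ and at 2.31, 3.1 and 4.03 CPM in the PrL and 5.19, 7.06 and 11.7 CPM in the NAcc in PWK. Neither strain overlapped between regions, and the directions were opposite (1.65 ± 0.179 and -1.19 ± 0.21, interaction adjusted p = 5.6e-13).

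Ptprh, a receptor tyrosine phosphatase, was at 0.434, 1.13 and 1.85 CPM in the PrL and 4.49, 6.11 and 9.73 CPM in the NAcc in CAST and 2.96, 3.39 and 4.67 CPM in the PrL and 2.31, 2.87 and 4.17 CPM in the NAcc in NZO. It was lower in the PrL in CAST (-2.55 ± 0.263), PWK (-2.06 ± 0.344), WSB (-2.65 ± 0.533) and S129 (-3.26 ± 0.593), and its difference was between -0.26 and 0.23 in the other strains (interaction adjusted p = 8.54e-12). The PrL libraries of S129 and WSB held at most 5 counts of Ptprh, so the sizes in those strains depend on the prior count. Cela1, an elastase, was at 1.17, 1.94 and 2.65 CPM in the PrL and 0.0553, 0.304 and 0.914 CPM in the NAcc in CAST and 0.275, 0.488 and 0.79 CPM in the PrL and 0.407, 0.775 and 1.48 CPM in the NAcc in NOD. It was an hDEG in CAST (2.47 ± 0.36) and PWK (2.30 ± 0.31), whereas NOD was at -0.75 ± 0.363 (interaction adjusted p = 8.59e-12). Arhgap42, a GTPase-activating protein, was at 23.1, 24.9 and 27 CPM in the PrL and 8.13, 8.62 and 10.3 CPM in the NAcc in AJ and 8.98, 10.5 and 12.2 CPM in the PrL and 8.39, 9.93 and 11.9 CPM in the NAcc in PWK, with overlap in PWK alone. Its difference was 1.5 ± 0.0979 in AJ and 0.084 ± 0.108 in PWK, and PWK departed from the others by -1.06 ± 0.115 (adjusted p = 2.47e-10). H2-T22, a non-classical MHC class I gene of a family with close copies, so that its counts are uncertain, was at 0.419, 0.562 and 1.08 CPM in the PrL and 2.1, 2.53 and 2.96 CPM in the NAcc in AJ (-2.02 ± 0.306), whereas in B6 it was at 21.5, 24.5 and 29.3 CPM in the PrL and at 11.3, 13.9, 17.1, 17.1 and 23.5 CPM in its 5 NAcc libraries (0.60 ± 0.107).

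Of the genes with opposite directions, those with the largest opposing differences were Fancd2, Coch, Cda and Wnt2b, which all kept opposite directions without the 10 libraries. Fancd2, of DNA crosslink repair, was at 5.92, 11.8 and 18 CPM in the PrL and 1.94, 2.57 and 3.24 CPM in the NAcc in WSB and 2.83, 4.09 and 4.88 CPM in the PrL and 15.5, 19.6 and 22.2 CPM in the NAcc in CAST. The regions did not overlap in either strain, and the differences were 2.01 ± 0.277 in WSB and -2.24 ± 0.241 in CAST, where all 6 mice had less in the PrL (interaction adjusted p = 7.65e-18). Coch, an extracellular matrix protein, was at 37.9, 46.9 and 52.8 CPM in the PrL and 9.12, 12 and 29 CPM in the NAcc in NZO (1.83 ± 0.405) and 3.75, 5.48 and 7.15 CPM in the PrL and 13.4, 26.5 and 97.3 CPM in the NAcc in CAST (-2.40 ± 0.544, interaction adjusted p = 6.94e-07). Cda, cytidine deaminase, was at 3.55, 4.35 and 5.96 CPM in the PrL and 0.837, 1.32 and 1.88 CPM in the NAcc in CAST (1.74 ± 0.318) and 0.157, 0.304 and 0.409 CPM in the PrL and 0.298, 1.91 and 5.26 CPM in the NAcc in WSB (-2.38 ± 0.504, interaction adjusted p = 1.09e-05). Wnt2b, a secreted signalling protein, was at 0.673, 0.935 and 1.9 CPM in the PrL and 0.215, 0.278 and 0.795 CPM in the NAcc in AJ (1.63 ± 0.501) and 0.0528, 0.116 and 0.36 CPM in the PrL and 0.166, 0.558 and 1.41 CPM in the NAcc in CAST (-2.10 ± 0.637, interaction adjusted p = 0.000364). Cda and Wnt2b were at a few counts in some of these libraries, and averaged over strains, Coch, Cda and Wnt2b did not differ beyond the test's threshold (adjusted p = 0.959, 0.151 and 0.406). Cda was lower in the PrL with mouse as a fixed block (-0.302, adjusted p = 0.0141), with edgeR's quasi-likelihood test (-0.353, adjusted p = 0.0121) and with DESeq2 (-0.348, adjusted p = 0.0119).

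**Figure D5:**
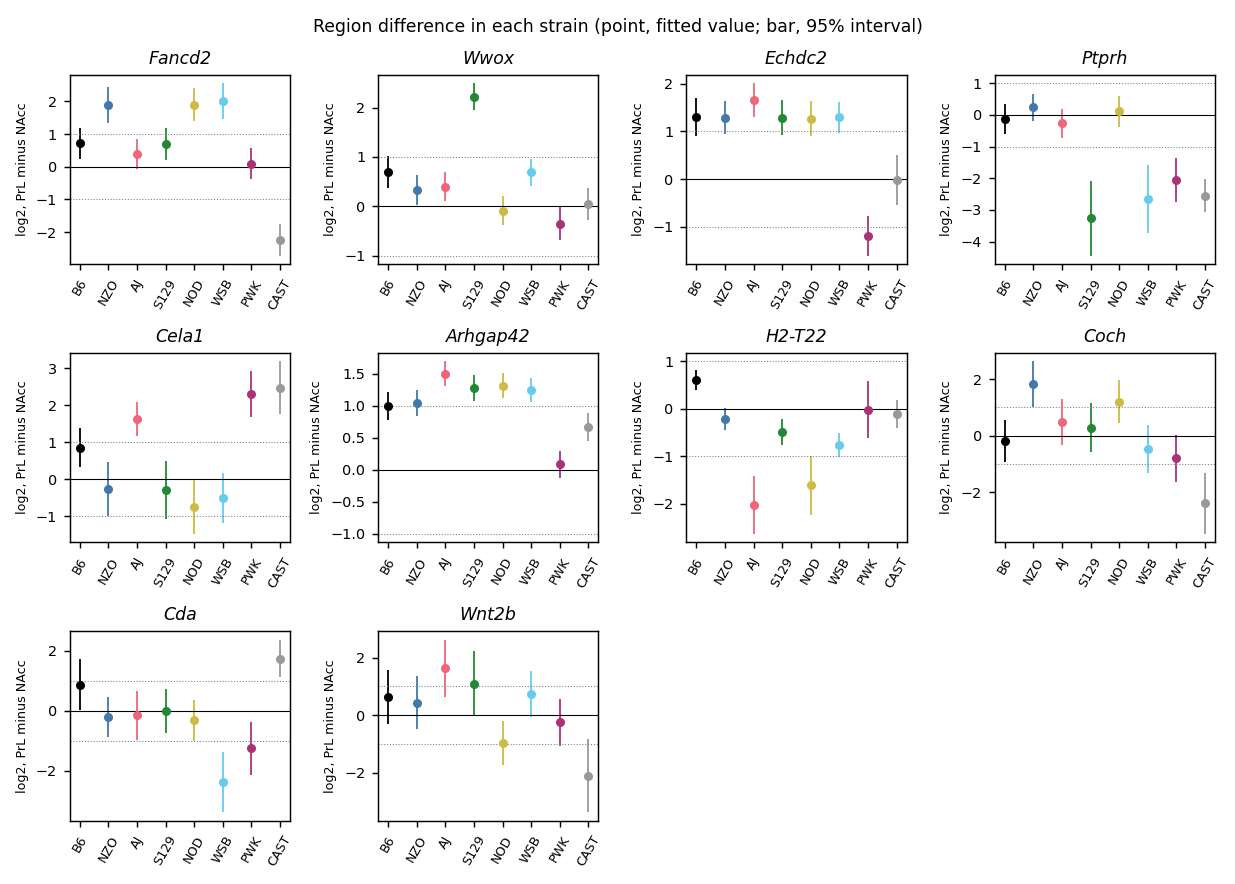
Fitted log2 difference (PrL minus NAcc, y axis) with its 95% confidence interval in each of the 8 strains (x axis) for the 7 strain-limited genes and the further genes of opposite direction, with dotted lines at a 2-fold difference. Fancd2 runs from -2.24 in CAST to 2.01 in WSB, and Wwox stands at 2.22 in S129.

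For each strain, the gene with the largest departure from the other 7 was also examined. In AJ this was Baiap2l1, an actin and membrane adaptor, at 10.7, 20.4 and 22.2 CPM in the PrL and 0.275, 0.505 and 2.31 CPM in the NAcc, without overlap. Its difference of 4.65 ± 0.318 departed by 5.20 ± 0.388 (adjusted p = 4.13e-17), and the other strains lay between -1.15 and 0.098. In WSB it was Ido1, which breaks down tryptophan, at 1.64, 3.08 and 4.14 CPM in the PrL and 2.75, 5.77 and 12.2 CPM in the NAcc. WSB overlapped between regions at a difference of -0.91 ± 0.441, while B6 had Ido1 at 0.133, 0.365 and 0.504 CPM in the PrL and at 10.1, 15.1, 21.9, 22.4 and 24.3 CPM in its 5 NAcc libraries, and the other strains differed by -5.88 (NOD) to -3.81 (PWK). The departure of WSB was 4.44 ± 0.598 (adjusted p = 2.25e-07).

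In NZO the gene was Myoc, the secreted glycoprotein myocilin, at 4.79, 6.83 and 8.38 CPM in the PrL and 0, 0.11 and 0.219 CPM in the NAcc, with a difference of 5.88 ± 0.586 and a departure of 4.18 ± 0.623 (adjusted p = 3.09e-06). The Myoc difference was 5.96 ± 0.457 in B6 and -1.31 ± 0.662 in CAST, and the vascular and meningeal list above was higher in the PrL as well, whose part in this was not tested. In S129 it was Ntn5, a netrin family gene, at 0.721, 1.11 and 1.82 CPM in the PrL and 0.14, 0.384 and 0.539 CPM in the NAcc. Its difference of 1.80 ± 0.456 was smaller than in the others by a departure of -3.10 ± 0.515 (adjusted p = 3.17e-05), though CAST was lower still (1.30 ± 0.5). In NOD it was Ighg2c, an immunoglobulin constant segment with close copies in the genome, at 10.5, 11.4 and 14.2 CPM in the PrL and 0, 0.217 and 0.343 CPM in the NAcc, with a departure of 3.76 ± 0.692 (adjusted p = 0.000194), which edgeR's quasi-likelihood test did not find (adjusted p = 0.97).

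In B6 the gene was Samd3, a SAM domain gene, at 0.341, 1.22 and 3.33 CPM in the PrL and at 0, 0.0463, 0.0574, 0.216 and 0.246 CPM in the 5 NAcc libraries. Its departure of 4.68 ± 1.44 (adjusted p = 0.0455) did not pass without the 10 libraries (adjusted p = 0.165), nor when any of 22 mice was left out (up to 0.114). In PWK and CAST the genes with the largest departures were Gm39043, of unknown function, and Olfr1393, an olfactory receptor of a large family with similar members. Gm39043 held at most 1 count in every PWK library of both regions, whereas the NAcc of B6 was at 3.16, 11.2, 12, 12.4 and 19.9 CPM and that of S129 at 1.34, 7.05 and 9.67 CPM. Olfr1393 held at most 3 counts in every CAST library, whereas the NAcc of B6 was at 5.66, 7.78, 11.3, 11.5 and 12.5 CPM. No fold is given for these strains because both regions were at the level of 3 counts or fewer, and the fitted departures of 6.90 ± 1.47 (adjusted p = 0.00165) and 6.50 ± 1.12 (adjusted p = 5.77e-05) depend on the prior count. That of Gm39043 did not pass with edgeR's quasi-likelihood test (adjusted p = 1) or with the B6 library without deposited log2 values added (adjusted p = 0.0707).

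Of the 28 activity-regulated genes, 14 passed the interaction test and 5 were strain-limited, beside 28.7% and 1.83% of all genes, and the 5 were hDEGs in WSB. Arc, a synaptic immediate early gene, was at 267, 307 and 812 CPM in the PrL and 38, 58.7 and 62.2 CPM in the NAcc in WSB, without overlap, and its difference of 2.79 ± 0.309 departed from the other strains by 1.88 ± 0.33 (adjusted p = 8.24e-05). Egr1, an immediate early transcription factor, was at 291, 337 and 633 CPM in the PrL and 87.4, 107 and 145 CPM in the NAcc in WSB (1.80 ± 0.273, departure 1.16 ± 0.291, adjusted p = 0.00979). Nr4a1, Ier5 and Dusp1 departed in WSB by 1.01 ± 0.294, 0.86 ± 0.213 and 0.84 ± 0.152 (adjusted p = 0.0323, 0.00892 and 0.000142). The mean log2 CPM of the whole list in the WSB PrL was 5.17, 5.41 and 5.99, whereas the WSB NAcc was at 3.83, 3.98 and 4.09, within the range of the others. Every WSB PrL library lay above those of the other strains, but the lowest (5.170) only just above the highest of NZO (5.168) and NOD (5.166). The PrL medians of NZO and NOD were 5.03 and 5.08. The highest WSB value was that of mouse 3, whose striatal projection neuron list was also high (5.03, beside a WSB PrL median of 4.12). Without the 10 libraries the interaction passed for all 5 genes, and Egr1, Nr4a1 and Dusp1 were strain-limited.

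Other strain-limited genes of the lists were Foxp1, a forkhead factor of striatal neurons, and Pou3f1, a POU factor, both in B6. Foxp1 was at 51.7, 97.8 and 112 CPM in the PrL and 215, 289, 386, 403 and 422 CPM in the 5 NAcc libraries of B6. Its difference of -1.95 ± 0.327 departed by -1.36 ± 0.347 (adjusted p = 0.0116), and the widest and narrowest strains lay at -1.95 to 0.0083. Pou3f1 differed by -1.94 ± 0.285 in B6, a departure of -1.32 ± 0.301 (adjusted p = 0.0039). Without the 10 libraries neither gene was strain-limited, with differences of -1.78 and -1.71 in B6. The further strain-limited genes of the lists were Arpp21 and Cnr1 of neuronal signalling and Dio2 and Crabp2 of hormone and retinoid signalling, with averaged differences of -1.25, 1.09, 1.43 and 1.14.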

How the data were processed

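Sequencing libraries of the PrL and NAcc were stranded, poly(A)-selected RNA-seq, and the labels gave the mouse, strain, sex, region and tray of each. Per the labels and the submitters' processing notes, the authors used FastQC, Trimmomatic, STAR 2.7.3a and GRCm39 (the design text also names mm10), so that reads of all strains were aligned to a single reference, whose effect on the wild-derived strains was not tested. The counts the authors deposited are whole, raw read counts per gene for 55414 genes and 240 libraries, of which trays 2 and 3 were sequenced again. The log2 values the authors deposited are log2 CPM after TMM normalization (edgeR 3.38.1, limma 3.52.2) for 14785 genes and 143 libraries, filtered on a mean CPM of 1, a maximum of 50000 counts and chromosomal location. Recomputed from the counts (tray 2 in its first run, tray 3 in its second), they differed by at most 4.99995e-06.

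Counts of the 95 PrL and NAcc libraries were analysed with edgeR 4.0.16 and limma 3.58.1 in R 4.3.3. TMM factors over 143 libraries, voom (prior count 0.5) and a model of strain by region and tray were used, with mouse as block (duplicateCorrelation, consensus correlation 0.0532). Pairing comes from the labels, which give both regions of a mouse the same number. Residuals of the same mouse correlated at a median of 0.134, and those of different mice of a strain at -0.049. Adjusted p-values are Benjamini-Hochberg values of limma's moderated test, with a threshold of 0.05, and hDEGs passed treat against a log2 fold change of 1. The 8 strains were adjusted together, as were the departures of each strain from the other 7. The floor was set at 3 counts of a gene per library. The steps were tested on simulated data.

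The comparison and the gene lists, which were written from general knowledge, were chosen with earlier results of these data known. Named genes were chosen by rule: the 10 higher and 10 lower genes, hDEGs in every strain, with the largest difference in the least different strain, the 8 strain-limited genes with the smallest p, the 4 genes with the largest opposing differences, the largest departure of each strain, the extreme members and strain-dependent members of each list, and a fixed set of region markers. Some genes chosen by these rules are not reported here. Further list members are given as examples. Alternatives were other tests (edgeR's quasi-likelihood test, DESeq2 1.42.0, limma-trend), normalizations, gene filters, runs, covariates and blocks, single trays and sexes, and leaving out each mouse. Coordinates and sequences are from RefSeq on GRCm38.p6, joined by gene symbol alone.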

Additional observations from a re-analysis of the deposited data

Results flagged for a closer look

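Single libraries that lay far from the others of their strain and region were looked for with Dixon's test in 88 groups, and 9 were found, where chance alone gives about 1 group in 20. As mean log2 CPM of the striatal projection neuron list, 1 PrL library stood high in NOD (4.257), WSB (5.034) and PWK (6.425, mouse 40), and 1 NAcc library stood low in AJ (7.005, mouse 21). For the pallial glutamatergic list, 1 NAcc library stood high in AJ (5.028, mouse 5) and in PWK (6.414, mouse 48). Among the named genes, 1 PrL library of AJ stood high for H2-T22 (log2 CPM 0.1361) and 1 stood low for Baiap2l1 (3.428), and 1 NAcc library of PWK stood apart for Gm39043 at a log2 CPM of -3.942, which is a single count.

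Region differences that differed between strains were tested with the interaction of strain and region. Between the strains at both ends, the signed difference (PrL minus NAcc, log2 scale) of Fancd2 was higher by 4.249 in WSB than in CAST. Its values were 2.01 in WSB and -2.24 in CAST, in opposite directions. The signed difference of Wwox was higher by 2.57 in S129 than in PWK and that of Echdc2 by 2.84 in AJ than in PWK. Ptprh differed by 3.496 between NZO and S129, Cela1 by 3.226 between CAST and NOD, Arhgap42 by 1.414 between AJ and PWK and H2-T22 by 2.622 between B6 and AJ. For the genes of opposite direction the gap was 4.227 for Coch (NZO minus CAST), 4.122 for Cda (CAST minus WSB) and 3.733 for Wnt2b (AJ minus CAST). The largest adjusted p of these was 0.0003641, that of Wnt2b.

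Against the mean of the other 7 strains, the signed region difference (PrL minus NAcc) of Samd3 was higher by 4.681 in B6 (adjusted p = 0.04555). That of Myoc was higher by 4.18 in NZO, that of Baiap2l1 by 5.196 in AJ and that of Ighg2c by 3.763 in NOD. That of Ido1 was higher by 4.441 in WSB, where Ido1 was least different between the regions (-0.91, beside -5.88 in NOD). Ntn5 in S129 departed by -3.096. Gm39043 departed by 6.904 in PWK (adjusted p = 0.001648) and Olfr1393 by 6.496 in CAST (adjusted p = 5.767e-05), both in strains where the gene was at 3 counts or fewer in both regions. All of these are adjusted p-values of limma's moderated test over 8 strains.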

How the results depend on the processing

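Of the settings tried, 13 kept all 11 counts of genes within 1.5 times the values reported, namely DESeq2, limma-trend, DESeq2 size factors, TMM over both regions only, no replicate block, mouse as a fixed replicate block, sex as a term, no tray term, no upper count limit, the other run, the sum of both runs, adjustment within strains and leaving out the 10 libraries that stand apart (the last chosen after seeing the data). These 11 do not include the departures of single strains, which moved by more than 1.5 times in 6 strains with adjustment within strains (54 in S129 to 2380 in B6), in 4 without the 10 libraries, in 3 with the excluded library and in 2 with no tray term. Without the mouse block, which uses the pairing of regions within mice, there were 5723 DEGs higher and 6544 lower, and the block changed only the call of Samd3 in B6 (adjusted p = 0.0564 without it) among the named results with a moderated test, whereas as a fixed term it also called Cda and Samd3 over all strains.

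Counts that moved by more than 1.5 times were as follows. edgeR's quasi-likelihood test gave 414 strain-limited genes. With sample quality weights 178 genes were lower in every strain, 8428 had an interaction, 653 were strain-limited, 1409 had opposite directions and 19148 gene-by-strain differences departed. With no filter on low counts (39427 genes, median difference 0.094) there were 16144 DEGs higher, 1303 hDEGs higher and 1010 lower, 8068 interactions, 599 strain-limited genes, 1119 of opposite direction, 9912 gene-by-strain hDEGs and 8583 departures. With a mean CPM of at least 5 there were 447 and 392 hDEGs, 149 strain-limited genes and 4095 gene-by-strain hDEGs. The excluded library brought interactions to 2751 and departures to 2919. A fitted fold of 2 in place of treat gave 435 higher and 338 lower genes in every strain, 1038 strain-limited genes and 14834 gene-by-strain hDEGs. Females alone (males alone) gave 61 (115) higher and 74 (45) lower genes in every strain, 510 (1370) interactions, 70 (125) strain-limited genes, 91 (296) of opposite direction, 4156 (4104) gene-by-strain hDEGs and 382 (1314) departures. Within trays 1, 2 and 3 the hDEGs that were lower numbered 483, 380 and 422, genes in every strain 92, 24 and 3 higher and 30, 8 and 23 lower, interactions 7, 0 and 9, strain-limited genes 2, 0 and 2, opposite genes 4, 0 and 6, gene-by-strain hDEGs 2460, 1520 and 1266 and departures 17, 6 and 32, with fewer libraries in each fit. For the other moved counts the cause was not tested.

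Leaving out 1 mouse at a time gave 5705 to 5762 DEGs higher and 6539 to 6591 lower, 694 to 714 and 624 to 652 hDEGs, 162 (without mouse 9) to 202 (without mouse 48) higher and 96 (without mouse 32) to 132 (without mouse 40) lower in every strain, 3615 (without mouse 33) to 4943 (without mouse 19) interactions, 236 to 313 strain-limited genes, 462 to 678 of opposite direction, 6267 to 6704 gene-by-strain hDEGs and 3470 to 5603 departures.

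Averaged over strains, 9 of 113 named genes changed sign in 22 cases, and of these only Aif1 had passed the test (0.12 as reported, -0.1159 within tray 2, adjusted p = 0.257). Zic4 (0.026 as reported) was at -0.08076 with the fixed block, -0.1321 with edgeR, -0.1207 with DESeq2, -0.2589 within tray 1 and -0.1532 in males. Coch (-0.0087) was at 0.00126 with no tray term, 0.0002142 with no low-count filter, 6.069e-05 with the excluded library, 0.4672 within tray 1, 0.01115 in females and 0.009116 in males. Wnt2b (0.15) was at -0.01626 with edgeR, -0.0106 with DESeq2, -0.09822 within tray 1 and -0.2591 in males. Baiap2l1 (0.10) was at -0.09076 with the other run and -0.4936 within tray 1, Gabra4 (-0.096) at 0.08123 within tray 1, Rspo1 (0.13) at -0.0383 within tray 2, Grm3 (0.050) at -0.02393 within tray 3 and Trpc4 (0.11) at -0.04935 in males.

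Depth limits the genes with at most 3 counts in a region, whose folds depend on the prior count of 0.5. Ighg2c in NOD and Gm39043 in PWK did not pass with edgeR's quasi-likelihood test (adjusted p = 0.972 and 1), and Oprl1, Reln and Aif1 did not pass without the 10 libraries (adjusted p = 0.382, 0.139 and 0.0576).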
